A study of Mus musculus with 27 samples.

Results

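Embryoid bodies (EBs) at day 6 were compared with undifferentiated mouse embryonic stem cells (mESCs), called EB day 0, in 4 RNA-seq libraries chosen by their labels from the 27 samples of the series. The cells were J1 mESCs, a single mouse ESC line, and the labels give the control vector (shCon) for all 4 libraries, so that both groups carried it. For EB day 0 (2 libraries, replicates 2 and 3) the cells were grown on gelatin without feeder cells, in serum with leukemia inhibitory factor (LIF). For EB day 6 (2 libraries, replicates 2 and 3) 1000 cells per well were left to aggregate in ultra-low attachment plates in the same medium without LIF. The loss of LIF, the aggregation and the time in culture changed together and cannot be told apart. No label says that the libraries of a day came from separate cultures, so the tests measure the spread between these libraries, which may be technical.

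LIF acts through the receptor Lifr and the factor Stat3 to keep mESCs in the naive state of the preimplantation epiblast. When it is withdrawn and the cells aggregate, they pass through a primed state like that of the epiblast after implantation and then follow steps of gastrulation, in which Nodal and Wnt signals induce the primitive streak, and mesoderm and endoderm leave the streak. EBs are used as a model of these steps because the cells of all germ layers can arise in them.

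The libraries held between 63726570 and 71385720 counts, and 18287 of the 24849 genes in the table had enough counts to be tested. A gene near 0 at day 0 was tested only if it was counted at day 6, so its test could hardly show a fall. Levels are given as CPM, the count scaled by the TMM-adjusted library size, with replicate 2 before replicate 3. Genes were called at a 2-fold change and a false discovery rate (FDR) of 0.05. At EB day 6, 3030 genes were upregulated (16.6% of those tested) and 2696 were downregulated (14.7%). The log2 fold change was 5 or more for 359 of them and -5 or less for 266, and its median over all genes tested was -0.00285. Without day 0 replicate 3, when the spread comes from the day 6 pair alone, 2041 genes were called higher and 1669 lower. In a bulk library, fewer cells of a type and less RNA per cell cannot be told apart, and an intermediate level can come from part of the cells.

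The 4 genes used to mark the comparison separated the days in every library. Fgf5, a growth factor gene of the primed epiblast, rose from 0.0543 and 0.0917 CPM at day 0 to 218 and 194 CPM at day 6 (log2 fold change 11.45, SE 0.18, FDR = 1.22e-06). T, the T-box factor Brachyury of the primitive streak, rose from 0.312 and 0.351 CPM at day 0 to 415 and 515 CPM at day 6 (10.45, SE 0.19, FDR = 1.43e-06). Fgf8, a ligand of the streak, rose from 0.190 and 0.214 CPM at day 0 to 88.9 and 95.2 CPM at day 6 (8.82, SE 0.14, FDR = 1.22e-06). Klf4, a naive pluripotency factor, fell from 262 and 268 CPM at day 0 to 5.22 and 5.41 CPM at day 6 (-5.64, SE 0.09, FDR = 1.22e-06). The levels of both libraries of a day lay close together for each of them, and the groups were far apart.

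**Figure D1:**
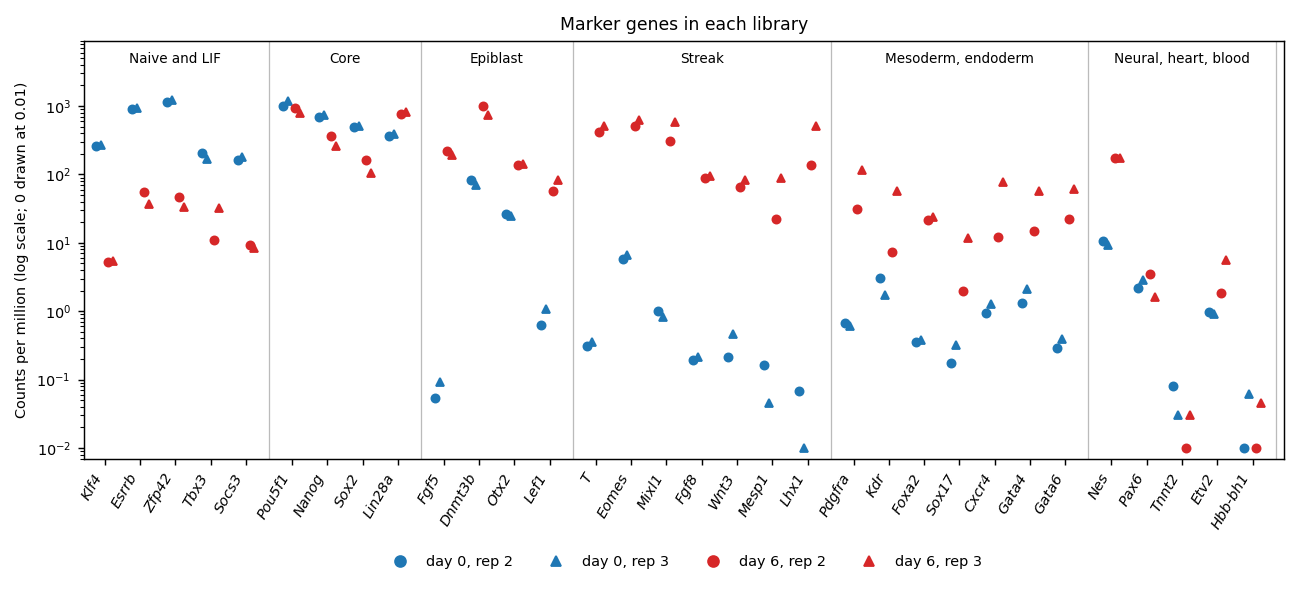
Marker genes in each library, with CPM on a log scale on the vertical axis: blue marks are the day 0 libraries and red marks the day 6 libraries, with circles for replicate 2 and triangles for replicate 3. Naive genes lie lower at day 6, epiblast and streak genes lie far higher, Pou5f1 lies near its day 0 level, and for Mesp1, Lhx1, Pdgfra, Kdr, Sox17 and Cxcr4 the day 6 libraries lie well apart.

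3 promoter windows are shown from the named genes whose windows hold the letters marked below, so that the letters were a condition of the choice. Their genes are Nanog, whose promoter is a textbook site of joint binding by Oct4 and Sox2, and T and Sp5, which Wnt signals activate through TCF/LEF factors. The sequences are RefSeq windows of 250 bases before to 50 bases after the start site, from the GRCm38.p6 reference, and each was found once, unbroken, beside its gene in mm9 at the position given. They are of the reference strain and not of J1. In the Nanog window (chr6:122657257-122657556, plus strand) the capitals mark the Oct letters ATGCAAA and the Sox letters CATTGT, both on the minus strand and 1 base apart.

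Nanog: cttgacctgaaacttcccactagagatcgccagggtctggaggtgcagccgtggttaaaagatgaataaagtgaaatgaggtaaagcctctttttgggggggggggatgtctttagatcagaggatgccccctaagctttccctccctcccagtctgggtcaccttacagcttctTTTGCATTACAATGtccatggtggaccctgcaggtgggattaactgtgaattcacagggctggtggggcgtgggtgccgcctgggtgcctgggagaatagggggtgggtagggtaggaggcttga

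In the T window (chr17:8627038-8627337, plus strand) and the Sp5 window (chr2:70312730-70313029, plus strand) the capitals mark the TCF/LEF letters CTTTGAT or CTTTGAA on either strand.

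T: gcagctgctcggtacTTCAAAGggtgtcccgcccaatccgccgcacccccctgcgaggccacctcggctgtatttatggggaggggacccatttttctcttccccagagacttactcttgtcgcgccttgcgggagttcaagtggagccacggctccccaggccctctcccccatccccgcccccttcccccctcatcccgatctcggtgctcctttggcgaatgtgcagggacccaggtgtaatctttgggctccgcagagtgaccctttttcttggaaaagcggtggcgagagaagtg

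Sp5: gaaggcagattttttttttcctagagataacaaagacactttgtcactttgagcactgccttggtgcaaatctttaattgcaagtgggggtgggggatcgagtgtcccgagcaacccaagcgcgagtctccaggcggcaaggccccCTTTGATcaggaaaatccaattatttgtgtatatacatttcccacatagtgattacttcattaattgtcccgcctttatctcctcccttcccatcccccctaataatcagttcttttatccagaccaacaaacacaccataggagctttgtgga

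The Oct and Sox letters at most 1 base apart were found in windows of 3 of 27025 genes (0.0111%), and of 1 of the 23 pluripotency genes below that had a window. The TCF/LEF letters were found in windows of 9.88% of all genes, of 2 of the 8 Wnt target and feedback genes that had one (T and Sp5), of 3 of 15 streak genes (T, Sp5 and Mesp1) and of 1 of the 23 pluripotency genes (Lin28a). Windows of named genes that fell or were not called, among them Emp1, Myh6 and Yeats4, held the TCF/LEF letters too. A match is a description of the letters in these windows and not a binding site.

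Genes of naive pluripotency fell together. All 18 genes of this list were tested, of which 16 fell and 0 rose by edgeR's quasi-likelihood test, with a median log2 fold change of -3.74, where 14.7% of all genes tested fell. DESeq2 also called 0 higher, and 0 were higher at an unadjusted p below 0.05. Zfp42 (Rex1), a zinc finger gene of naive cells, fell from 1152 and 1211 CPM at day 0 to 47.4 and 33.6 CPM at day 6 (log2 fold change -4.87, SE 0.18, FDR = 9.16e-06). Esrrb, an orphan nuclear receptor, fell from 916 and 925 CPM at day 0 to 55.7 and 36.8 CPM at day 6 (-4.31, SE 0.21, FDR = 1.90e-05). Tfcp2l1, a factor that acts with it, fell from 962 and 864 CPM at day 0 to 50.8 and 36.2 CPM at day 6 (-4.39, SE 0.18, FDR = 1.20e-05). At day 6 their mean CPM was 3.43% of the day 0 mean for Zfp42, 5.03% for Esrrb and 4.77% for Tfcp2l1. Klf2, a target of the same network, fell from 221 and 236 CPM at day 0 to 32.1 and 23.2 CPM at day 6 (-3.05, SE 0.16, FDR = 2.61e-05). Fgf4, the growth factor that drives cells out of the naive state, fell from 200.2 and 194 CPM at day 0 to 13.9 and 13.5 CPM at day 6 (-3.85, SE 0.08, FDR = 2.33e-06). Fbxo15, a target of Oct4 and Sox2, fell from 78.0 and 66.9 CPM at day 0 to 5.59 and 3.87 CPM at day 6 (-3.94, SE 0.19, FDR = 1.92e-05). Tcl1, a cofactor of the kinase Akt, fell from 36.7 and 33.4 CPM at day 0 to 1.6 and 0.589 CPM at day 6 (-5.0, SE 0.38, FDR = 9.43e-05). Tbx3, which in mESCs is a LIF-responsive factor and in embryos also a mesoderm and endoderm gene, fell from 203 and 167 CPM at day 0 to 11.1 and 32.4 CPM at day 6 (-3.09, SE 0.45, FDR = 0.00152), with day 6 replicate 3 well above replicate 2 but far below both day 0 libraries. The log2 fold change without day 6 replicate 3 was -4.05 for Tbx3, without day 6 replicate 2 it was -5.89 for Tcl1, and without day 0 replicate 3 Tbx3 was not called.

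Core factors changed less and unequally. The core list held 17 genes, all tested, with a median of -0.82. Of these 8 fell (47.1%, against 14.7% of all genes tested) and 2 rose (11.8%, below the 16.6%). Pou5f1 (Oct4), the factor on which pluripotency depends, was at 1002 and 1174 CPM at day 0 and at 923 and 798 CPM at day 6 (log2 fold change -0.34, SE 0.12, FDR = 0.0446), which is under the 2-fold limit. Nanog fell from 699.9 and 746 CPM at day 0 to 363 and 259 CPM at day 6 (-1.22, SE 0.16, FDR = 9.32e-04). Sox2, the partner of Oct4, fell from 497 and 515 CPM at day 0 to 160.2 and 105 CPM at day 6 (-1.93, SE 0.19, FDR = 2.84e-04). Per exon length, Pou5f1 went from 482 to 381 RPKM (CPM per kilobase of exon), Nanog from 323 to 139 RPKM and Sox2 from 206 to 53.9 RPKM, while T reached 201 and Fgf5 82.4 RPKM. For all 3 pluripotency factors day 6 replicate 2 lay above replicate 3. Utf1, a chromatin protein of ESCs, fell from 333 and 361 CPM at day 0 to 88.7 and 49.7 CPM at day 6 (-2.33, SE 0.25, FDR = 4.28e-04). Gdf3, a ligand of the Nodal group, fell from 109 and 123 CPM at day 0 to 20.1 and 10.9 CPM at day 6 (-2.90, SE 0.27, FDR = 2.05e-04). Dppa5a (-2.61, SE 0.19, FDR = 8.16e-05), Dppa2 (-2.08, SE 0.24, FDR = 5.66e-04) and Dppa4 (-1.83, SE 0.25, FDR = 0.00109) also fell, although 63.2% of the exon sequence of Dppa5a, 26.9% of that of Dppa2 and 34% of that of Dppa4 was shared with other annotated genes. L1td1, an RNA-binding protein gene, fell from 843 and 867 CPM at day 0 to 491 and 334 CPM at day 6 (-1.05, SE 0.17, FDR = 0.00250).

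The 2 genes of the core list that rose encode RNA-binding proteins that block maturation of the let-7 microRNA. Lin28a rose from 365 and 384 CPM at day 0 to 776 and 826 CPM at day 6 (log2 fold change 1.10, SE 0.08, FDR = 9.85e-05). Lin28b rose from 42.4 and 41.9 CPM at day 0 to 118 and 96.8 CPM at day 6 (1.35, SE 0.11, FDR = 1.25e-04). Without day 0 replicate 3, only 4 core genes were called down: Nanog (FDR = 0.0598), Dppa2, Dppa4 and L1td1 were not. Without day 6 replicate 3 the log2 fold changes of Nanog (-0.98) and L1td1 (-0.79) were under the 2-fold limit.

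Some members of the LIF pathway changed at each step from receptor to feedback. Of 11 genes, 5 fell (45.5%, against 14.7% of all genes tested), 1 rose (9.09%, against 16.6%) and 5 were not called. Lifr, the receptor chain that binds LIF, fell from 91.0 and 78.8 CPM at day 0 to 30.4 and 32.2 CPM at day 6 (log2 fold change -1.44, SE 0.10, FDR = 6.67e-05). Stat3, the factor it activates, fell from 138 and 143 CPM at day 0 to 27.6 and 29.0 CPM at day 6 (-2.31, SE 0.08, FDR = 7.49e-06). Socs3, the feedback inhibitor induced by Stat3, fell from 164 and 179 CPM at day 0 to 9.25 and 8.46 CPM at day 6 (-4.28, SE 0.10, FDR = 2.42e-06). The kinase genes Pim1 (-1.43, SE 0.09, FDR = 5.75e-05) and Pim3 (-1.85, SE 0.10, FDR = 2.42e-05) fell too. Jak2, which passes the signal to Stat3, rose from 4.86 and 4.19 CPM at day 0 to 14.3 and 16.2 CPM at day 6 (1.75, SE 0.16, FDR = 1.78e-04).

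Genes of the primed epiblast rose, with 10 of 13 up (76.9%, against 16.6% of all genes tested) and a median of 2.48. The 2 that fell were 15.4% of the list, near the 14.7% of all genes tested. Dnmt3b, a DNA methyltransferase of the early epiblast, rose from 83.8 and 70.5 CPM at day 0 to 1005 and 729 CPM at day 6 (log2 fold change 3.49, SE 0.18, FDR = 2.46e-05). Otx2, a factor of the primed state and of the anterior epiblast, rose from 26.1 and 24.8 CPM at day 0 to 139 and 144 CPM at day 6 (2.48, SE 0.08, FDR = 6.05e-06). Zic2, a zinc finger factor, rose from 13.2 and 15.0 CPM at day 0 to 259.8 and 250.3 CPM at day 6 (4.17, SE 0.10, FDR = 2.42e-06). Zic5 (2.22, SE 0.08, FDR = 8.37e-06) and Cldn6, a tight junction gene of the epiblast (3.64, SE 0.13, FDR = 7.87e-06), rose as well. Pou3f1, which is often used as a primed marker, rose from 0.149 and 0.260 CPM at day 0 to 1.41 and 0.665 CPM at day 6 (2.34, SE 0.53, FDR = 0.00901). The exon sequence of Pou3f1 overlapped another gene over 98.3% of its length, so its reads cannot be assigned with certainty. Of the genes that fell, Foxd3 fell from 48.4 and 48.5 CPM at day 0 to 18.3 and 8.37 CPM at day 6 (-1.86, SE 0.32, FDR = 0.00305). Etv4, a target of FGF signals, fell from 143 and 142 CPM at day 0 to 38.0 and 43.5 CPM at day 6 (-1.80, SE 0.09, FDR = 2.38e-05). Leaving out day 0 replicate 2 gave a log2 fold change of 1.98 for Pou3f1, and leaving out day 6 replicate 2 gave -2.53 for Foxd3 and 1.71 for Pou3f1. Neither gene was called without day 0 replicate 3, nor was Pou3f1 without day 0 replicate 2.

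**Figure D2:**
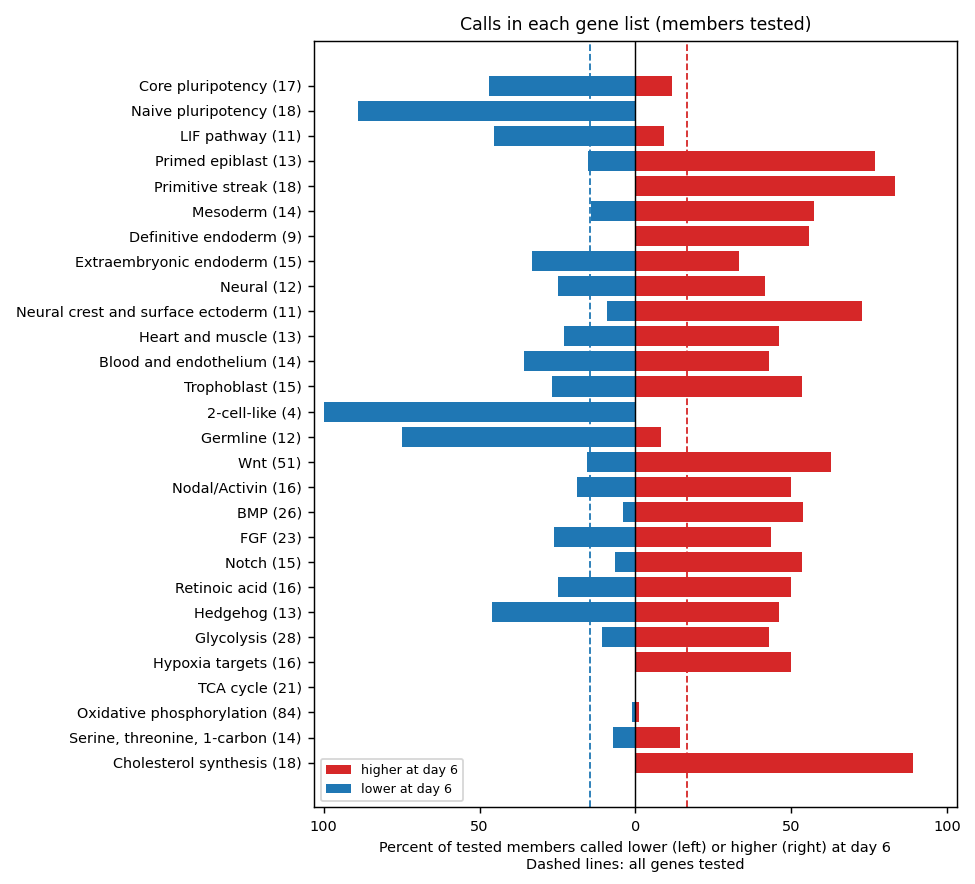
Calls in each gene list: bars give the percent of the tested members called higher (red, to the right) or lower (blue, to the left) at EB day 6, with the number tested after the name of each list, and dashed lines give the percent over all genes tested (16.6% and 14.7%). Streak, primed epiblast and cholesterol genes stand furthest to the right and naive, 2-cell-like and germline genes furthest to the left, while no TCA cycle gene was called.

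Of the lists examined, primitive streak genes had the highest median log2 fold change (6.36), with 15 of 18 up, where 16.6% of all genes tested rose. By edgeR's quasi-likelihood test 0 fell, as by DESeq2 and at an unadjusted p below 0.05. Only 1 of the 18 reached 10 CPM at day 0, so most had little room to fall. Eomes, the T-box factor that starts mesoderm and endoderm formation, rose from 5.70 and 6.63 CPM at day 0 to 514 and 616 CPM at day 6 (log2 fold change 6.52, SE 0.15, FDR = 2.42e-06). Mixl1, a homeobox gene of the streak, rose from 1.00 and 0.810 CPM at day 0 to 309 and 581 CPM at day 6 (8.93, SE 0.40, FDR = 1.52e-05). Wnt3, the ligand that induces the streak, rose from 0.217 and 0.458 CPM at day 0 to 65.8 and 84.1 CPM at day 6 (7.81, SE 0.28, FDR = 7.74e-06). All 3 were at under 7 CPM at day 0 and at over 65 CPM in both day 6 libraries. Mesp1, a factor of the first mesoderm to leave the streak, rose from 0.163 and 0.0458 CPM at day 0 to 22.2 and 87.7 CPM at day 6 (8.97, SE 0.96, FDR = 3.89e-04). Lhx1, a gene of the anterior streak and early mesoderm, rose from 0.0679 and 0 CPM at day 0 to 138 and 514 CPM at day 6 (13.08, SE 1.10, FDR = 1.42e-04). Snai1, which represses E-cadherin in ingressing cells, rose from 3.03 and 4.13 CPM at day 0 to 44.6 and 115 CPM at day 6 (4.48, SE 0.47, FDR = 3.69e-04). Day 6 replicate 3 was 3.94 times as high as replicate 2 for Mesp1, 3.73 times for Lhx1 and 2.58 times for Snai1.

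Nodal, the ligand that induces the streak together with Wnt3, was 1 of 3 streak genes that were not called. It was at 72.5 and 97.2 CPM at day 0 and at 94.4 and 72.2 CPM at day 6 (log2 fold change -0.03, SE 0.17, FDR = 0.908). The days overlapped. With day 6 replicate 3 left out the log2 fold change was 7.68 for Mesp1, 11.84 for Lhx1 and 3.65 for Snai1, and without day 6 replicate 2 it was 9.65 for Mesp1 and 13.74 for Lhx1. Without day 0 replicate 3 it was 12.19 for Lhx1, 8.42 for Wnt3 and 8.38 for Mesp1, and Mesp1 and Snai1 were not called (11 streak genes were), while without day 0 replicate 2 Lhx1 had no count at day 0 and was at least 7112-fold higher (against 3 counts), and Mesp1 had 3 counts and a ratio of 1199 (95% counting interval 410.0 to 5814).

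Mesoderm genes rose more often than all genes tested, but only 1 of the 17 below reached 10 CPM at day 0. Genes near 0 at day 0 pass the count filter only through day 6, so the filter can raise the share that rose. Of 17 mesoderm genes in the table, 14 were tested. Of these 8 rose (57.1%, against 16.6% of all genes tested) and 2 fell (14.3%, near the 14.7%). Of lateral and intermediate genes 5 of 7 tested rose. Of paraxial genes 3 of 7 rose and 2 fell, with a median of 1.91. Meis2, a homeobox gene, rose from 3.99 and 4.69 CPM at day 0 to 26.0 and 33.7 CPM at day 6 (log2 fold change 2.78, SE 0.17, FDR = 4.74e-05). Pdgfra, the receptor used to sort early mesoderm, rose from 0.665 and 0.611 CPM at day 0 to 31.0 and 116 CPM at day 6 (6.84, SE 0.74, FDR = 4.10e-04). Day 6 replicate 3 was 3.74 times as high as replicate 2. Tcf15 (-2.59, SE 0.25, FDR = 2.43e-04) and Meox1 (-2.27, SE 0.40, FDR = 0.00317), genes of the somites, fell. Aplnr, the apelin receptor of nascent mesoderm, had 1 count in the day 0 libraries together and was at 61.0 and 241 CPM at day 6, a ratio of 21032 (95% counting interval 3774 to 830758). Kdr (Flk1), the VEGF receptor of blood and vessel precursors, rose from 3.08 and 1.70 CPM at day 0 to 7.27 and 57.6 CPM at day 6 (3.76, SE 0.92, FDR = 0.0126). Flt1, a second VEGF receptor, rose from 0.679 and 0.718 CPM at day 0 to 20.3 and 30.9 CPM at day 6 (5.19, SE 0.26, FDR = 2.35e-05). Etv2, the factor at the start of the blood and vessel lineage, rose from 0.977 and 0.901 CPM at day 0 to 1.81 and 5.53 CPM at day 6 (1.96, SE 0.52, FDR = 0.0166).

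Several of the rises above depended on the library. With 1 library left out, the log2 fold change stayed between 2.59 and 2.96 for Meis2 and between 4.86 and 5.47 for Flt1. Day 6 replicate 3 was 7.93 times as high as replicate 2 for Kdr and 3.96 times for Aplnr. Without replicate 3 the log2 fold change was 5.61 for Pdgfra, 1.61 for Kdr and 0.95 for Etv2, and without replicate 2 it was 7.5 for Pdgfra, 4.59 for Kdr and 2.56 for Etv2. Without day 0 replicate 3, Pdgfra, Kdr, Etv2 and Meox1 were not called, and 2 mesoderm genes were called up in place of 8 and 1 down in place of 2. The ratio of Aplnr was 8482 (1521 to 335090.4) without day 6 replicate 3 and 9894 (1776 to 390827) without day 0 replicate 2, and without day 0 replicate 3 it was at least 3712-fold higher. Etv2 was not called without day 6 replicate 3 either, and without day 0 replicate 2 neither Kdr nor Etv2 was.

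Of 23 blood and endothelium genes in the table, 14 were tested. Of these 6 rose (42.9%) and 5 fell (35.7%), where 16.6% and 14.7% of all genes tested did. Flt1 and Kdr, given above, were among those that rose. The genes that fell include those of surface proteins of endothelium that were already transcribed at day 0. Pecam1 fell from 46.1 and 30.9 CPM at day 0 to 2.39 and 1.48 CPM at day 6 (-4.31, SE 0.29, FDR = 6.27e-05). Tek fell from 7.56 and 8.98 CPM at day 0 to 0.847 and 0.680 CPM at day 6 (-3.43, SE 0.23, FDR = 5.72e-05). Eng fell from 21.0 and 28.2 CPM at day 0 to 7.33 and 6.81 CPM at day 6 (-1.80, SE 0.17, FDR = 2.25e-04). Gata1, the erythroid factor, fell from 1.33 and 0.489 CPM at day 0 to 0.197 and 0.0151 CPM at day 6 (-3.09, SE 0.88, FDR = 0.0227). No globin gene was tested, and Hbb-bh1, the embryonic globin, was at 0 and 0.0611 CPM at day 0 and at 0 and 0.0453 CPM at day 6. Of 17 heart and muscle genes 13 were tested, of which 6 rose (46.2%) and 3 fell (23.1%). Of the 7 tested factors 5 rose, with a median of 2.86, and of the 6 tested contractile genes 1 rose and 3 fell. Actc1 rose from 1 count at day 0 to 2.57 and 3.69 CPM at day 6, a ratio of 435 (95% counting interval 77.7 to 17224). None of the 17 reached 10 CPM in any library, and Tnnt2, cardiac troponin T, was at 0.0814 and 0.0306 CPM at day 0 and at 0 and 0.0302 CPM at day 6. The contractile genes Myh6 (-2.12, SE 0.28, FDR = 9.01e-04), Myh7 (-1.64, SE 0.44, FDR = 0.0174) and Ryr2 (-2.23, SE 0.29, FDR = 9.13e-04) fell from levels under 5 CPM, and 24.1% and 16.2% of the exon sequence of Myh6 and Myh7 was shared. Itga2b also fell (-1.33, SE 0.40, FDR = 0.0264). Without 1 library the log2 fold change of Gata1 was -2.20 without day 0 replicate 2 and -2.20 without day 6 replicate 3, and that of Myh7 was -2.34 without day 6 replicate 3. With day 6 replicate 2 left out Gata1 had 1 count at day 6, a ratio of 61.9 (95% counting interval 10.9 to 2463). Gata1, Myh7 and Itga2b were not called without either day 0 library, and Itga2b not without day 6 replicate 2. Without day 0 replicate 3, 2 heart and muscle genes were called up in place of 6, and 2 blood and endothelium genes in place of 6, with 3 of the latter down in place of 5. When day 0 replicate 2 was left out, 3 genes of each list were called up, and without day 6 replicate 3, 3 heart and muscle genes were called up and 5 down.

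Among 11 definitive endoderm genes, 9 were tested, of which 5 rose (55.6%, against 16.6% of all genes tested). Foxa2, a forkhead factor of the anterior streak and endoderm, rose from 0.353 and 0.382 CPM at day 0 to 21.4 and 23.9 CPM at day 6 (log2 fold change 5.94, SE 0.18, FDR = 4.80e-06), with close replicates. Sox17, the endoderm factor, rose from 0.176 and 0.321 CPM at day 0 to 1.95 and 11.8 CPM at day 6 (4.79, SE 0.93, FDR = 0.00484). Cxcr4, a surface marker of definitive endoderm, rose from 0.937 and 1.28 CPM at day 0 to 12.0 and 77.1 CPM at day 6 (5.33, SE 0.91, FDR = 0.00288). Cer1, a secreted Nodal and Wnt antagonist, rose from 0.0407 and 0.0306 CPM at day 0 to 3.90 and 17.4 CPM at day 6 (8.14, SE 1.04, FDR = 8.19e-04). Day 6 replicate 3 was 6.04 times as high as replicate 2 for Sox17, 6.41 times for Cxcr4 and 4.47 times for Cer1. Of 21 extraembryonic endoderm genes in the table, 15 were tested, with 5 up and 5 down. This was 33.3% each way, against 16.6% and 14.7% of all genes tested. Among them Gata4 rose from 1.32 and 2.11 CPM at day 0 to 14.8 and 57.0 CPM at day 6 (4.4, SE 0.66, FDR = 0.00170). Gata6 rose from 0.285 and 0.397 CPM at day 0 to 21.9 and 61.0 CPM at day 6 (6.93, SE 0.61, FDR = 1.75e-04). Both are also genes of early mesoderm and definitive endoderm. The basement membrane genes Col4a1 (1.73, SE 0.20, FDR = 5.65e-04) and Col4a2 (1.79, SE 0.19, FDR = 3.41e-04) rose, and Lama1 fell (-2.22, SE 0.26, FDR = 6.14e-04). Ttr, a transport protein of visceral endoderm, was at 0 and 0 CPM at day 0 and at 0.0151 and 0 CPM at day 6.

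In the fit without day 6 replicate 3 the log2 fold change was 2.98 for Sox17, 3.45 for Cxcr4, 6.70 for Cer1, 3.13 for Gata4 and 6.02 for Gata6, and without day 6 replicate 2 it was 5.58 for Sox17, 6.13 for Cxcr4, 8.85 for Cer1 and 5.07 for Gata4. Sox17, Cxcr4, Cer1, Gata4 and Col4a1 were not called without day 0 replicate 3, nor Sox17 without day 0 replicate 2, and 2 definitive and 3 extraembryonic endoderm genes were called up without day 0 replicate 3. 1 definitive endoderm gene was called down without day 6 replicate 3. Foxa2 kept its call in each case.

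Neural genes moved in both directions, and most factors of this list were low. Of 20 in the table, 12 were tested. Of these 5 rose (41.7%, against 16.6% of all genes tested) and 3 fell (25%, against 14.7%). Nes, the intermediate filament gene of neural progenitors that other early cells also express, rose from 10.6 and 9.18 CPM at day 0 to 174 and 176 CPM at day 6 (log2 fold change 4.15, SE 0.10, FDR = 2.42e-06). En1 rose from 0.869 and 1.65 CPM at day 0 to 11 and 11.7 CPM at day 6 (3.18, SE 0.30, FDR = 2.26e-04). Pax6, a factor of neural progenitors, was at 2.20 and 2.81 CPM at day 0 and at 3.51 and 1.6 CPM at day 6 (0.03, SE 0.38, FDR = 0.953). Of the genes that fell, Neurod1 fell from 9.24 and 17.3 CPM at day 0 to 2.66 and 1.83 CPM at day 6 (-2.56, SE 0.34, FDR = 0.00104). En2 fell from 19.9 and 18.3 CPM at day 0 to 6.24 and 3.73 CPM at day 6 (-1.94, SE 0.24, FDR = 7.58e-04). Tubb3, the neuronal tubulin gene, fell from 253 and 236 CPM at day 0 to 23.2 and 15.9 CPM at day 6 (-3.64, SE 0.18, FDR = 2.23e-05). Of 14 crest and surface ectoderm genes, 11 were tested. Of these 8 rose (72.7%, against 16.6% of all genes tested) and 1 fell (9.09%, against 14.7%). Those with the highest levels, Msx1 and Ets1, are also expressed in streak and mesoderm cells. Msx1 rose from 0.679 and 0.657 CPM at day 0 to 40.6 and 87.3 CPM at day 6 (6.58, SE 0.44, FDR = 6.17e-05). Ets1 rose from 1.37 and 1.48 CPM at day 0 to 22.1 and 26.2 CPM at day 6 (4.08, SE 0.16, FDR = 1.13e-05). Neither keratin gene of the list had enough counts to be tested. Without day 6 replicate 3 the log2 fold change of Msx1 was 5.93. En2 (FDR = 0.0502) was not called without day 0 replicate 3, when 3 neural and 5 crest and surface ectoderm genes were called up and the crest gene that fell was not called.

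Of 17 trophoblast genes in the table, 15 were tested. Of these 8 rose (53.3%, against 16.6% of all genes tested) and 4 fell (26.7%, against 14.7%). The 2 with the largest rises, Cdx2 and Eomes, are streak genes as well. Cdx2 rose from 0.0950 and 0.336 CPM at day 0 to 17.8 and 26.7 CPM at day 6 (log2 fold change 6.71, SE 0.45, FDR = 5.92e-05). The keratin gene Krt8 rose from 23.1 and 17.5 CPM at day 0 to 69.1 and 134 CPM at day 6 (2.32, SE 0.31, FDR = 0.00102). Its partner Krt18 rose from 5.78 and 5.29 CPM at day 0 to 41.9 and 52.5 CPM at day 6 (3.09, SE 0.14, FDR = 1.74e-05). In contrast, Tead4 (-1.87, SE 0.34, FDR = 0.00396), Esx1 (-1.87, SE 0.26, FDR = 0.00125) and Rhox9 (-2.83, SE 0.61, FDR = 0.00739) fell. Rhox6, at 0.543 and 0.581 CPM at day 0, had 1 count at day 6, a ratio of 74.2 (95% counting interval 12.9 to 2969), and 31.5% of its exon sequence and 10.4% of that of Rhox9 was shared. The log2 fold change without day 0 replicate 2 was 6.03 for Cdx2, without day 0 replicate 3 7.84 for Cdx2, and without day 6 replicate 3 -2.51 for Tead4. With day 6 replicate 3 left out Rhox9 had 2 counts at day 6, a ratio of 14.5 (3.85 to 122), and Rhox6 had none and was at least 12.4-fold lower, while without day 6 replicate 2 its ratio was 37.1 (6.47 to 1485). Krt8, Tead4 and Rhox9 were not called without day 0 replicate 3, when 3 trophoblast genes were called up and 2 down. The keratins Krt8 and Krt18 are also found in other epithelia of the early embryo.

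Wnt pathway genes changed by role. Of 56 genes, 51 were tested, with a median of 1.96. Of these 32 rose (62.7%, against 16.6% of all genes tested) and 8 fell (15.7%, near the 14.7%). Among 16 tested ligands 12 rose and 2 fell. Wnt8a rose from 0.136 and 0.199 CPM at day 0 to 42.3 and 34.0 CPM at day 6 (log2 fold change 7.83, SE 0.23, FDR = 4.42e-06). Wnt5b rose from 0.787 and 0.947 CPM at day 0 to 16.6 and 28.3 CPM at day 6 (4.70, SE 0.31, FDR = 5.96e-05). Wnt2b rose from 0.556 and 0.306 CPM at day 0 to 6.62 and 16.2 CPM at day 6 (4.71, SE 0.53, FDR = 4.82e-04). Wnt3 rose as given above. Wnt10a (-1.37, SE 0.36, FDR = 0.0167) and Wnt7b (-1.23, SE 0.40, FDR = 0.0345) fell from levels near 1 CPM. Among the 17 receptors 9 rose and 1 fell. The frizzled gene Fzd1 rose from 0.624 and 0.611 CPM at day 0 to 14.9 and 35.2 CPM at day 6 (5.34, SE 0.47, FDR = 1.71e-04). Fzd2 rose from 6.31 and 6.42 CPM at day 0 to 77.5 and 80.3 CPM at day 6 (3.63, SE 0.09, FDR = 2.42e-06). Ror1, a receptor of Wnt5a, rose from 0.706 and 1.01 CPM at day 0 to 24.8 and 22.3 CPM at day 6 (4.78, SE 0.21, FDR = 1.30e-05). The 1 that fell was Fzd5, which fell from 357 and 327 CPM at day 0 to 40.7 and 32.7 CPM at day 6 (-3.22, SE 0.13, FDR = 1.13e-05). Day 6 replicate 3 was the higher day 6 library for Fzd1.

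Wnt antagonists moved in both directions, with 3 of the 8 tested up and 5 down. Frzb rose from 0.0950 and 0.0306 CPM at day 0 to 56.2 and 187 CPM at day 6 (log2 fold change 10.84, SE 0.93, FDR = 1.51e-04). Dkk1, which blocks the Lrp coreceptors and is itself a Wnt target, rose from 0.163 and 0.0764 CPM at day 0 to 7.04 and 21.3 CPM at day 6 (6.84, SE 0.72, FDR = 3.53e-04). Sfrp2 rose from 3.08 and 3.12 CPM at day 0 to 25.5 and 19.8 CPM at day 6 (2.87, SE 0.17, FDR = 3.81e-05). Sfrp1, which encodes a secreted frizzled-related protein, fell from 227 and 208 CPM at day 0 to 35 and 32.6 CPM at day 6 (-2.69, SE 0.09, FDR = 6.92e-06). Notum, which removes the lipid of Wnt proteins, fell from 18.7 and 21.2 CPM at day 0 to 1.35 and 1.56 CPM at day 6 (-3.78, SE 0.17, FDR = 1.43e-05). Sfrp4 (-1.63, SE 0.37, FDR = 0.00921), Sfrp5 (-3.38, SE 0.31, FDR = 2.05e-04) and Dkk3 (-1.23, SE 0.22, FDR = 0.00369) fell too. Target and feedback genes rose in 8 of 10 cases. Axin2, the feedback inhibitor used as a readout of canonical Wnt signals, rose from 12.2 and 14.5 CPM at day 0 to 121 and 129 CPM at day 6 (3.23, SE 0.11, FDR = 7.22e-06). Lef1 rose from 0.638 and 1.08 CPM at day 0 to 57.8 and 82.8 CPM at day 6 (6.36, SE 0.29, FDR = 1.56e-05). Sp5 rose from 1.18 and 2.00 CPM at day 0 to 154 and 240.0 CPM at day 6 (6.96, SE 0.33, FDR = 1.87e-05). Nkd1 rose from 1.45 and 1.51 CPM at day 0 to 20.7 and 26.0 CPM at day 6 (3.98, SE 0.18, FDR = 1.46e-05).

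Left-out libraries changed several of the Wnt values. Leaving out day 6 replicate 3 gave a log2 fold change of 9.73 for Frzb, 5.84 for Dkk1, 3.93 for Wnt2b and 4.59 for Fzd1, and without day 6 replicate 2 it was 11.46 for Frzb, 7.43 for Dkk1 and -2.39 for Sfrp4. Without day 0 replicate 2 it was 7.49 for Dkk1, and Frzb, with 2 counts left at day 0, had a ratio of 3982 (95% counting interval 1102 to 32881). Wnt7b and Wnt10a were not called without either day 0 library, Wnt7b not without day 6 replicate 2 and Wnt10a not without day 6 replicate 3. Dkk1, Dkk3, Wnt2b and Sfrp4 were not called without day 0 replicate 3, nor Sfrp4 without day 0 replicate 2, and 23 Wnt genes were called up and 4 down without day 0 replicate 3, and 5 down without day 0 replicate 2.

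**Figure D3:**
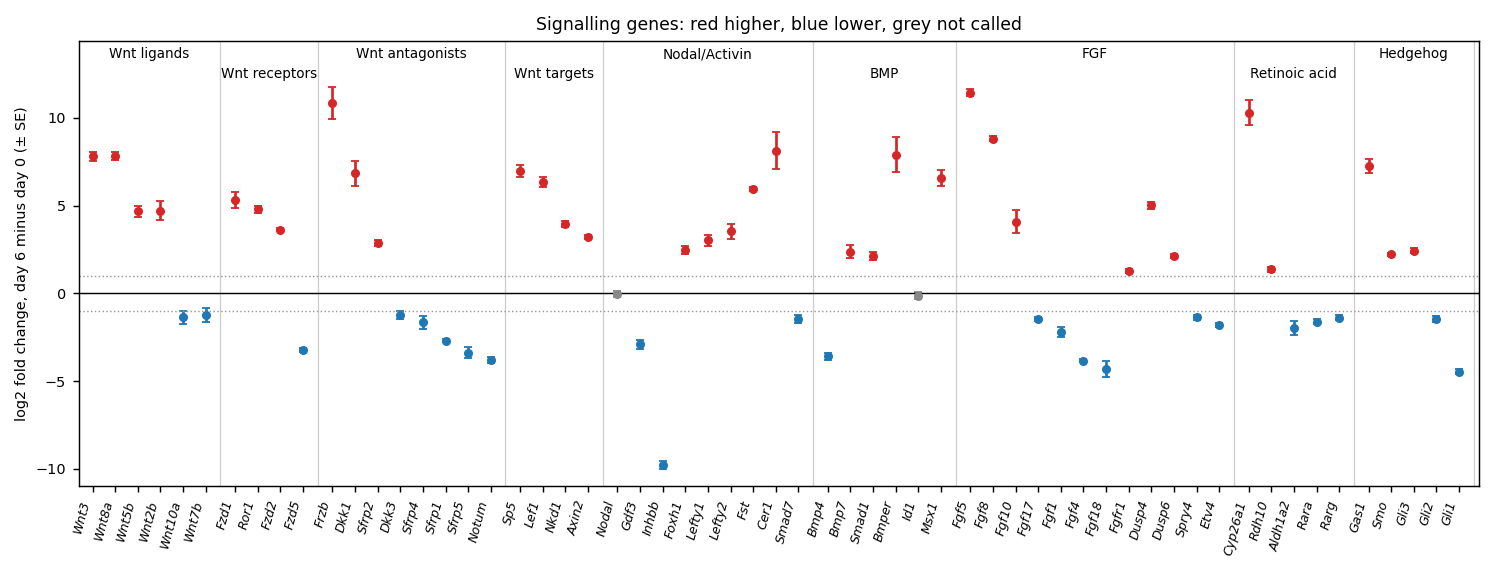
Signalling genes named in the text: points are log2 fold changes at EB day 6 against EB day 0 and bars their SE, red for genes called higher, blue for genes called lower and grey for genes not called, and dotted lines mark the 2-fold limit. Within most pathways some members lie above and others below 0, and Inhbb is the lowest at -9.78.

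Of 16 tested genes of the Nodal and Activin pathway 8 rose (50%) and 3 fell (18.8%), where 16.6% and 14.7% of all genes tested did. By role, 2 of 3 tested ligands fell and 4 of 5 antagonist and feedback genes rose. Nodal was not called and Gdf3 fell, as given above. Inhbb, the Activin B subunit, fell from 270.4 and 249 CPM at day 0 to 0.197 and 0.393 CPM at day 6 (log2 fold change -9.78, SE 0.21, FDR = 2.33e-06). Its mean CPM at day 0 was 882 times that at day 6. Among the antagonists, Fst (follistatin), which binds Activin, rose from 6.03 and 6.75 CPM at day 0 to 379.9 and 409.8 CPM at day 6 (5.95, SE 0.11, FDR = 1.50e-06). Lefty1 rose from 3.71 and 7.41 CPM at day 0 to 49.9 and 40.2 CPM at day 6 (3.02, SE 0.31, FDR = 3.26e-04). Lefty2 rose from 8.16 and 13.0 CPM at day 0 to 74.0 and 173 CPM at day 6 (3.55, SE 0.43, FDR = 6.71e-04). Cer1, given above, was the other. Of the exon sequence, 19.8% of Lefty1 and 12.8% of Lefty2 was shared with another gene, so part of their counts is uncertain. Smad7, the inhibitory Smad, fell from 73.5 and 69.2 CPM at day 0 to 32.6 and 19.7 CPM at day 6 (-1.45, SE 0.22, FDR = 0.00166). Foxh1, the factor that carries Nodal signals to their targets, rose from 17.8 and 15.6 CPM at day 0 to 70.1 and 113 CPM at day 6 (2.45, SE 0.22, FDR = 1.99e-04). The receptors Acvr2a (1.20, SE 0.14, FDR = 6.32e-04) and Acvr2b (1.41, SE 0.15, FDR = 3.39e-04) and the mediator Smad3 (1.24, SE 0.13, FDR = 3.63e-04) rose. Lefty2 was at 2.82 on the log2 scale without day 6 replicate 3, and neither Lefty2 nor Smad7 was called without day 0 replicate 3.

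BMP ligands changed in type. Of 27 BMP genes 26 were tested, with a median of 1.06. Of these 14 rose (53.8%, against 16.6% of all genes tested) and 1 fell (3.85%, against 14.7%). The 1 that fell was Bmp4, the BMP of serum-grown mESCs and of the early embryo, which fell from 40.7 and 34.9 CPM at day 0 to 2.62 and 3.70 CPM at day 6 (log2 fold change -3.58, SE 0.19, FDR = 2.69e-05), while Bmp7 rose from 2.73 and 1.80 CPM at day 0 to 8.12 and 15.7 CPM at day 6 (2.39, SE 0.36, FDR = 0.00169). Smad1, the mediator of BMP signals, rose from 26.5 and 26.9 CPM at day 0 to 86.1 and 147 CPM at day 6 (2.13, SE 0.24, FDR = 4.56e-04). The receptors Acvr1 (1.83, SE 0.15, FDR = 1.19e-04) and Bmpr1a (1.01, SE 0.08, FDR = 1.35e-04) rose. Id1, the direct BMP target used as a readout, was at 69.0 and 67.9 CPM at day 0 and at 47.1 and 77.9 CPM at day 6 (-0.13, SE 0.21, FDR = 0.620), with overlapping groups, whereas the targets Msx1, given above, and Msx2 (2.16, SE 0.39, FDR = 0.00372) rose. Of the extracellular regulators, Bmper rose from 0.0543 and 0.0306 CPM at day 0 to 4.02 and 17.3 CPM at day 6 (7.89, SE 1.00, FDR = 7.87e-04). Twsg1 rose (1.51, SE 0.13, FDR = 1.66e-04). Bambi, a decoy receptor, rose by little more than 2-fold (1.11, SE 0.21, FDR = 0.00435).

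Several of the BMP calls were lost when 1 library was left out. Without day 0 replicate 3 the spread came from the day 6 pair alone, while the log2 fold changes moved little (2.14 for Smad1 and 7.57 for Bmper). With day 6 replicate 3 left out the log2 fold change was 6.49 for Bmper, 1.42 for Msx2 and 0.79 for Bambi, and without day 6 replicate 2 it was 8.59 for Bmper. Only 5 BMP genes were called up without day 0 replicate 3, when Bmp7, Bmper, Smad1, Msx2 and Bambi were not. Bambi and Bmpr1a also missed the limits without day 0 replicate 2 or day 6 replicate 3.

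FGF ligands moved in both directions. Of 24 FGF genes 23 were tested. Of these 10 rose (43.5%, against 16.6% of all genes tested) and 6 fell (26.1%, against 14.7%). Fgf5 and Fgf8 rose and Fgf4 fell as given above. Fgf10, a ligand of mesoderm, rose from 1.49 and 1.21 CPM at day 0 to 9.46 and 36.9 CPM at day 6 (log2 fold change 4.10, SE 0.65, FDR = 0.00204). Fgf17, a relative of Fgf8, fell from 36.5 and 31.4 CPM at day 0 to 12.7 and 12.2 CPM at day 6 (-1.45, SE 0.12, FDR = 1.15e-04), and Fgf18 (-4.30, SE 0.44, FDR = 3.24e-04) and Fgf1 (-2.20, SE 0.30, FDR = 0.00107) fell too. Fgfr1, the main FGF receptor of the epiblast and streak, rose from 90.2 and 81.2 CPM at day 0 to 195 and 224 CPM at day 6 (1.29, SE 0.10, FDR = 1.08e-04). Feedback genes also split. Dusp6, a phosphatase of the ERK cascade, rose from 80.7 and 98.8 CPM at day 0 to 368 and 416 CPM at day 6 (2.13, SE 0.12, FDR = 3.72e-05). Dusp4 rose from 4.66 and 5.58 CPM at day 0 to 137 and 196 CPM at day 6 (5.03, SE 0.21, FDR = 1.20e-05). The inhibitor gene Spry1 rose (1.44, SE 0.14, FDR = 2.63e-04), whereas Spry4 fell from 194 and 225 CPM at day 0 to 72.2 and 89.9 CPM at day 6 (-1.37, SE 0.13, FDR = 2.36e-04). Etv4 fell as given above. The log2 fold change of Fgf10 was 2.81 without day 6 replicate 3 and 4.77 without replicate 2, and neither Fgf10 nor Fgf1 was called without day 0 replicate 3.

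Notch genes rose in 8 of 15 tested (53.3%, against 16.6% of all genes tested), with 1 down (6.67%, against 14.7%). Dll1, a ligand of presomitic mesoderm, rose from 0.719 and 1.04 CPM at day 0 to 7.74 and 34.5 CPM at day 6 (log2 fold change 4.59, SE 0.74, FDR = 0.00219). Dll3, which acts with it, rose from 1.97 and 2.46 CPM at day 0 to 14.2 and 47.5 CPM at day 6 (3.80, SE 0.57, FDR = 0.00158). Day 6 replicate 3 was 4.45 times as high as replicate 2 for Dll1 and 3.34 times for Dll3. Among the receptors, Notch3 rose from 29.8 and 31.3 CPM at day 0 to 98.7 and 93.9 CPM at day 6 (1.66, SE 0.08, FDR = 2.04e-05). Notch2 rose (1.6, SE 0.15, FDR = 2.17e-04). Notch4 fell (-2.11, SE 0.23, FDR = 4.28e-04). The target Nrarp rose as well (2.76, SE 0.30, FDR = 4.28e-04). In the fit without day 6 replicate 3 the log2 fold change was 3.15 for Dll1 and 2.69 for Dll3, and without replicate 2 it was 5.30 for Dll1 and 4.43 for Dll3. Dll1, Dll3 and Nrarp were not called without day 0 replicate 3, and 2 Notch genes were called up in place of 8, or 5 without day 0 replicate 2.

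Retinoic acid genes gave a mixed picture, with 8 of 16 tested up (50%) and 4 down (25%). Of all genes tested 16.6% rose and 14.7% fell. Cyp26a1, the enzyme that breaks down retinoic acid in the gastrulating embryo, rose from 0.0271 and 0.0917 CPM at day 0 to 43.2 and 106 CPM at day 6 (log2 fold change 10.29, SE 0.72, FDR = 6.88e-05). Aldh1a2, the enzyme that makes it in mesoderm, fell from 1.40 and 1.63 CPM at day 0 to 0.242 and 0.529 CPM at day 6 (-1.97, SE 0.42, FDR = 0.00703). Rdh10, which acts a step earlier, rose (1.38, SE 0.14, FDR = 2.70e-04). Among receptors, Rxrg rose (5.31, SE 0.18, FDR = 6.34e-06). Rara fell from 76.6 and 93.5 CPM at day 0 to 29.5 and 26.3 CPM at day 6 (-1.61, SE 0.12, FDR = 9.22e-05). Rarg fell from 167 and 200.4 CPM at day 0 to 77.6 and 64.2 CPM at day 6 (-1.38, SE 0.13, FDR = 2.22e-04). The binding protein gene Crabp1 fell (-2.08, SE 0.57, FDR = 0.0187). The log2 fold change without day 6 replicate 3 was 9.52 for Cyp26a1, -2.63 for Aldh1a2 and -3.48 for Crabp1, without day 6 replicate 2 -1.38 for Crabp1, and without day 0 replicate 2 9.63 for Cyp26a1. Cyp26a1 without day 0 replicate 3 had 2 counts at day 0 and a ratio of 2745 (95% counting interval 759.8 to 22672). Aldh1a2 and Crabp1 were not called without day 0 replicate 3, nor Crabp1 without day 0 replicate 2. In the fit without day 0 replicate 3, 5 genes of the list were called up.

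Hedgehog components split evenly, with 6 of 13 tested up and 6 down (46.2% each way). Of all genes tested 16.6% rose and 14.7% fell. Gli1, the target gene used as a readout of the pathway, fell from 107 and 100.3 CPM at day 0 to 5.22 and 4.18 CPM at day 6 (log2 fold change -4.46, SE 0.13, FDR = 4.26e-06). Gli2, the main activator, fell from 191 and 168 CPM at day 0 to 75.5 and 54.4 CPM at day 6 (-1.47, SE 0.16, FDR = 4.36e-04). Gli3, the main repressor, rose from 12.0 and 9.98 CPM at day 0 to 64.2 and 55.1 CPM at day 6 (2.44, SE 0.13, FDR = 2.87e-05). The coreceptor gene Gas1 rose from 0.461 and 0.733 CPM at day 0 to 62.2 and 119.9 CPM at day 6 (7.26, SE 0.42, FDR = 3.66e-05). The coreceptor Cdon (1.52, SE 0.16, FDR = 3.24e-04), the transducer Smo (2.22, SE 0.10, FDR = 1.68e-05) and the inhibitor Sufu (1.16, SE 0.09, FDR = 9.57e-05) rose. Gli1 was thus lower at day 6, while the transducer and the coreceptors were higher.

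Cadherin genes of mesenchymal cells rose, and so did several epithelial genes. Of 17 genes of this transition, 11 rose (64.7%, against 16.6% of all genes tested) and 1 fell (5.88%, against 14.7%). Cdh2 (N-cadherin) rose from 1.94 and 2.87 CPM at day 0 to 108 and 272 CPM at day 6 (log2 fold change 6.31, SE 0.51, FDR = 1.22e-04). Cdh11 rose from 0.787 and 0.626 CPM at day 0 to 96.0 and 218 CPM at day 6 (7.78, SE 0.50, FDR = 5.06e-05). Cdh1 (E-cadherin) was at 395 and 346 CPM at day 0 and at 606 and 472 CPM at day 6 (0.54, SE 0.14, FDR = 0.0141) and was not called, while Epcam rose from 21.3 and 29.3 CPM at day 0 to 99.3 and 73.8 CPM at day 6 (1.77, SE 0.19, FDR = 4.28e-04). Cldn7 rose from 1.52 and 1.71 CPM at day 0 to 30.9 and 23.6 CPM at day 6 (4.08, SE 0.19, FDR = 1.71e-05). Of the factors that repress epithelial genes, Zeb2 rose (4.68, SE 0.24, FDR = 2.23e-05). Snai1, given above, rose too, and Snai2 fell (-2.18, SE 0.39, FDR = 0.00357). The tight junction gene Ocln rose (1.6, SE 0.28, FDR = 0.00322). Leaving out day 6 replicate 3 gave a log2 fold change of 5.51 for Cdh2 and 7.08 for Cdh11, and Snai2 (FDR = 0.0509) was not called without day 0 replicate 3. When day 6 replicate 2 was left out, 2 genes of the list fell.

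Genes of glycolysis rose at several steps. All 28 listed genes were tested, with a median of 0.81. Of these 12 rose (42.9%, against 16.6% of all genes tested) and 3 fell (10.7%, against 14.7%). Slc2a1 (Glut1), a glucose transporter, rose from 178 and 207 CPM at day 0 to 604 and 554 CPM at day 6 (log2 fold change 1.59, SE 0.10, FDR = 5.67e-05). Slc16a3 (Mct4), a lactate exporter, rose from 9.08 and 12.6 CPM at day 0 to 214 and 216 CPM at day 6 (4.31, SE 0.17, FDR = 9.82e-06). Pfkl, a phosphofructokinase, rose from 42.6 and 39.2 CPM at day 0 to 272 and 311 CPM at day 6 (2.83, SE 0.10, FDR = 8.20e-06). Tpi1 rose from 94.9 and 113 CPM at day 0 to 683 and 738 CPM at day 6 (2.78, SE 0.11, FDR = 1.16e-05). Ldha, the lactate dehydrogenase, rose from 514 and 545 CPM at day 0 to 2447 and 3084 CPM at day 6 (2.39, SE 0.13, FDR = 3.11e-05). In each of these genes the libraries of a day lay close together. Of the 18 enzyme genes 8 rose and 2 fell (11.1%, where 14.7% of all genes tested fell). Hk1, a hexokinase gene, fell from 81.1 and 54.7 CPM at day 0 to 13.7 and 11.6 CPM at day 6 (-2.43, SE 0.20, FDR = 1.31e-04). Pfkp, a second phosphofructokinase gene, fell from 79.2 and 67.4 CPM at day 0 to 23.9 and 18.4 CPM at day 6 (-1.79, SE 0.15, FDR = 1.35e-04). Aldoc, an aldolase gene, rose (2.98, SE 0.16, FDR = 3.01e-05). Hk2, another hexokinase gene, was at 142 and 129 CPM at day 0 and at 107 and 96.3 CPM at day 6 (-0.42, SE 0.09, FDR = 0.00837) and was not called. Pfkfb3, which makes the activator of phosphofructokinase, rose (1.98, SE 0.10, FDR = 2.53e-05). Pdk4, which closes pyruvate dehydrogenase, fell (-2.70, SE 0.22, FDR = 1.30e-04). The lactate carrier Slc16a1 rose (1.15, SE 0.13, FDR = 5.59e-04), though it was not called without day 0 replicate 3 (FDR = 0.0522) and missed 2-fold without day 6 replicate 3 (0.95).

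Targets of the hypoxia response rose in 8 of 16 cases (50%, against 16.6% of all genes tested), with a median of 1.07. Bnip3, a mitophagy gene, rose from 4.64 and 7.06 CPM at day 0 to 90.0 and 93.1 CPM at day 6 (log2 fold change 3.97, SE 0.19, FDR = 2.04e-05). Egln3, an oxygen sensor, rose from 6.47 and 6.51 CPM at day 0 to 54.0 and 69.6 CPM at day 6 (3.25, SE 0.14, FDR = 1.49e-05). Ddit4 rose from 25 and 42.9 CPM at day 0 to 227 and 303 CPM at day 6 (2.97, SE 0.27, FDR = 2.01e-04). Ndrg1 rose from 4.15 and 4.17 CPM at day 0 to 30.4 and 32.9 CPM at day 6 (2.93, SE 0.12, FDR = 1.14e-05). None of 21 TCA cycle genes was called by edgeR's quasi-likelihood test in either direction (median -0.12), and DESeq2 also called 0. At an unadjusted p below 0.05 there were 12, and the log2 fold change of none of the 21 exceeded 0.71 in size. The nuclear genes of oxidative phosphorylation were listed by gene name, so assembly factor genes such as Ndufaf1 and the copy Atp5l-ps1 are included. Of the 84 tested 1 rose and 1 fell (1.19% each way, against 16.6% and 14.7% of all genes tested). At an unadjusted p below 0.05, 50 were lower and 7 higher, and at an FDR of 0.05 without the fold limit 41 were lower and 6 higher. Ndufa4l2, a relative of a respiratory chain subunit that was chosen here after its values were seen, rose from 0.0407 and 0.107 CPM at day 0 to 3.20 and 6.90 CPM at day 6 (6.09, SE 0.59, FDR = 2.61e-04). Atp5g1, of the ATP synthase, fell (-1.13, SE 0.07, FDR = 5.71e-05), with 10.2% of its exon sequence shared. The median of the list was -0.26. All 21 TCA cycle genes reached 10 CPM at both days.

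**Figure D4:**
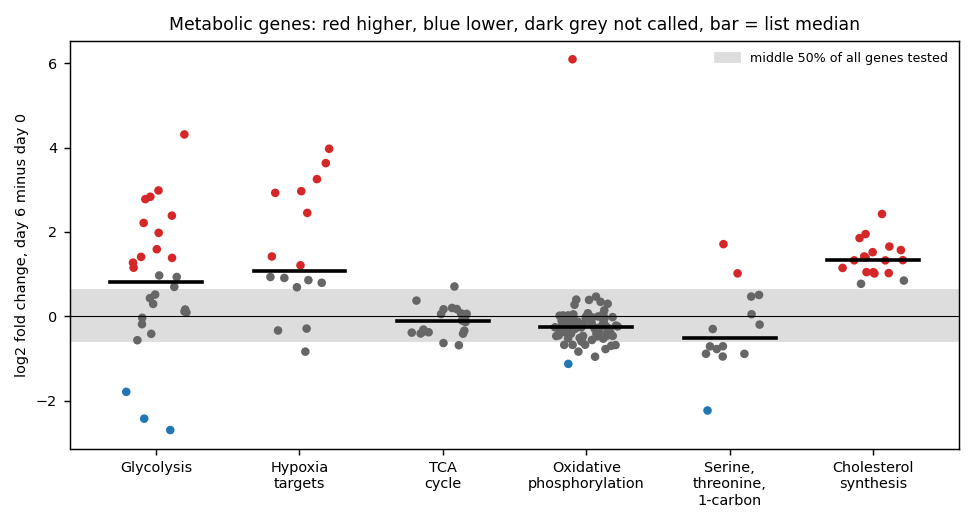
Metabolic genes: each point is the log2 fold change of 1 gene at EB day 6 against EB day 0, red for called higher, blue for called lower and dark grey for not called, black bars are list medians and the grey band holds the middle 50% of all genes tested (-0.59 to 0.61). The medians of cholesterol synthesis (1.33), hypoxia targets (1.07) and glycolysis (0.81) lie above the band, and those of the TCA cycle (-0.12) and oxidative phosphorylation (-0.26) inside it.

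Genes of cholesterol synthesis rose along the pathway, with a median of 1.33. Of 18 tested genes 16 rose (88.9%, against 16.6% of all genes tested). Cyp51, a demethylase of lanosterol, rose from 35.1 and 35.7 CPM at day 0 to 192 and 188 CPM at day 6 (log2 fold change 2.43, SE 0.08, FDR = 5.71e-06). Nsdhl rose from 15.0 and 18.1 CPM at day 0 to 64.7 and 63.0 CPM at day 6 (1.95, SE 0.11, FDR = 3.40e-05). Sqle, squalene epoxidase, rose from 62.4 and 58.2 CPM at day 0 to 204 and 175 CPM at day 6 (1.65, SE 0.10, FDR = 4.36e-05). Insig1, a regulator of the pathway, rose from 37.8 and 40.1 CPM at day 0 to 159 and 122 CPM at day 6 (1.85, SE 0.13, FDR = 7.82e-05). Srebf2, the factor that activates these genes, rose from 148 and 149 CPM at day 0 to 309.9 and 294 CPM at day 6 (1.02, SE 0.08, FDR = 9.20e-05). The replicates of a day were close in all of them. Idi1 also rose (1.57, SE 0.13, FDR = 1.36e-04), but 83.8% of its exon sequence was shared with 1 other gene, so its count is uncertain. Several rises were just over 2-fold, and between 12 and 16 genes were called when 1 library was left out, Srebf2 (0.99) being lost without day 6 replicate 2.

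Of 14 genes of serine, threonine and 1-carbon metabolism, 2 rose (14.3%) and 1 fell (7.14%). Both shares lay below those of all genes tested (16.6% and 14.7%). Tdh, the threonine dehydrogenase on which mouse ESCs depend, fell from 6.30 and 5.59 CPM at day 0 to 1.81 and 0.710 CPM at day 6 (log2 fold change -2.23, SE 0.41, FDR = 0.00371). Gldc, the glycine cleavage enzyme, rose from 36.2 and 39.4 CPM at day 0 to 137 and 110.3 CPM at day 6 (1.71, SE 0.12, FDR = 7.35e-05). Ahcy rose by just over 2-fold (1.02, SE 0.10, FDR = 2.55e-04), and 64% of its exon sequence was shared with other genes. With day 6 replicate 2 left out the log2 fold change was -3.06 for Tdh, Tdh was not called without day 0 replicate 3, and Ahcy was not without day 0 replicate 2. When day 6 replicate 3 was left out, 2 genes of the list fell.

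Among the enzymes of DNA methylation and its removal, 9 genes were tested, with a median of 0.01. Of these 2 rose (22.2%, against 16.6% of all genes tested) and 3 fell (33.3%, against 14.7%). Dnmt3b rose as given above, and Tet3, which oxidizes 5-methylcytosine, rose from 6.12 and 4.90 CPM at day 0 to 18.8 and 15.8 CPM at day 6 (log2 fold change 1.65, SE 0.17, FDR = 3.38e-04). Its relatives moved the other way. Tet1 fell from 762 and 585 CPM at day 0 to 155 and 97.5 CPM at day 6 (-2.41, SE 0.24, FDR = 2.71e-04). Tet2 fell from 226 and 217 CPM at day 0 to 7.18 and 4.85 CPM at day 6 (-5.20, SE 0.19, FDR = 8.37e-06). Dnmt3l, the cofactor of the DNA methyltransferases, fell from 41.4 and 44.8 CPM at day 0 to 15.1 and 11.4 CPM at day 6 (-1.70, SE 0.15, FDR = 1.69e-04). Of 24 Polycomb genes 3 rose and 3 fell (12.5% each way, below the 16.6% and 14.7% of all genes tested), with 5 down without day 6 replicate 3 and 5 up without day 6 replicate 2. Eed, a core subunit of PRC2, fell from 127 and 132 CPM at day 0 to 49.8 and 53.2 CPM at day 6 (-1.33, SE 0.08, FDR = 4.02e-05). Jarid2, which recruits PRC2, fell from 567 and 547 CPM at day 0 to 235 and 209 CPM at day 6 (-1.33, SE 0.09, FDR = 6.54e-05). Rbbp7 (1.16, SE 0.10, FDR = 1.38e-04), Phc2 (2.14, SE 0.15, FDR = 6.83e-05) and Kdm2b (1.33, SE 0.11, FDR = 1.60e-04) rose.

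The series is about Gas41, the product of Yeats4, a subunit of the SRCAP and Tip60/p400 complexes that place or acetylate the histone variant H2A.Z. Yeats4 was at 42.2 and 44.6 CPM at day 0 and at 47.1 and 52.1 CPM at day 6 (log2 fold change 0.19, SE 0.09, FDR = 0.105), which misses the FDR limit, and H2afz, which encodes H2A.Z, was at 1078 and 1115 CPM at day 0 and at 886 and 889 CPM at day 6 (-0.30, SE 0.08, FDR = 0.0168), although 40.7% of its exon sequence was shared with other genes. None of the 20 genes of the H2A.Z list, these 2 included, was called by edgeR's quasi-likelihood test in either direction, and DESeq2 called 0 as well, although 11 had an unadjusted p below 0.05. Their median log2 fold change was -0.17. Of 18 cell cycle genes 3 fell (16.7%, near the 14.7% of all genes tested), and 1 did without day 0 replicate 3 or without day 6 replicate 3. By edgeR's quasi-likelihood test 0 rose, as by DESeq2, though 5 were higher at an unadjusted p below 0.05 and 2 were called up when day 0 replicate 3 was left out. Ccnd3, a D-type cyclin, fell from 251 and 208 CPM at day 0 to 72.5 and 86.3 CPM at day 6 (-1.53, SE 0.13, FDR = 1.42e-04). The inhibitor Cdkn1c, at 8.78 and 17.2 CPM at day 0 and 22.2 and 29.2 CPM at day 6, lay just under the 2-fold limit (0.99, SE 0.31, FDR = 0.0301), above it without day 0 replicate 3 (1.55) or day 6 replicate 2 (1.18).

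Germline genes that are active in serum-grown mESCs fell, 9 of 12 tested (75%, against 14.7% of all genes tested), and 1 rose (8.33%, against 16.6%). Piwil2, of the piRNA pathway that silences transposons in germ cells, fell from 28.5 and 25.4 CPM at day 0 to 0.952 and 1.18 CPM at day 6 (log2 fold change -4.66, SE 0.17, FDR = 8.31e-06). Tdrd12, which acts in the same pathway, fell from 11.3 and 13.3 CPM at day 0 to 2.51 and 1.51 CPM at day 6 (-2.61, SE 0.26, FDR = 2.95e-04). Ddx4 (Vasa), the germ cell helicase, fell from 21.2 and 21.7 CPM at day 0 to 7.63 and 6.18 CPM at day 6 (-1.63, SE 0.14, FDR = 1.73e-04). Sycp3 rose at a level of under 2 CPM (1.20, SE 0.31, FDR = 0.0145), was not called without either day 0 library, and overlaps another gene over 63.1% of its exon sequence.

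Imprinted genes rose in 8 of 13 tested cases (61.5%, against 16.6% of all genes tested), with a median of 1.77. Igf2, the fetal growth factor expressed from the paternal allele, rose from 3.26 and 2.69 CPM at day 0 to 24.4 and 41.8 CPM at day 6 (log2 fold change 3.47, SE 0.28, FDR = 1.21e-04). H19, the RNA of the same locus that is expressed from the maternal allele, rose from 4.13 and 4.03 CPM at day 0 to 29.7 and 51.0 CPM at day 6 (3.31, SE 0.26, FDR = 1.16e-04). Peg3, a paternally expressed zinc finger gene, rose from 23.8 and 24.8 CPM at day 0 to 449 and 718 CPM at day 6 (4.59, SE 0.24, FDR = 2.38e-05). Plagl1 rose from 6.69 and 6.78 CPM at day 0 to 28.4 and 21.0 CPM at day 6 (1.88, SE 0.17, FDR = 1.89e-04). The first 3 were higher in day 6 replicate 3 than in replicate 2. The counts do not separate the alleles.

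Of 12 stress genes 3 rose (25%, against 16.6% of all genes tested) and 5 fell (41.7%, against 14.7%), split by kind. The immediate early gene Fos rose from 1.81 and 3.25 CPM at day 0 to 15.2 and 9.38 CPM at day 6 (log2 fold change 2.29, SE 0.35, FDR = 0.00171). Jun rose from 3.08 and 4.19 CPM at day 0 to 19.4 and 19.4 CPM at day 6 (2.42, SE 0.18, FDR = 8.46e-05). Atf3 rose from 2.23 and 3.68 CPM at day 0 to 10.4 and 13.9 CPM at day 6 (2.04, SE 0.28, FDR = 0.00108). Genes of the amino acid response moved the other way. Asns, asparagine synthetase, fell from 277 and 270.2 CPM at day 0 to 74.4 and 89.3 CPM at day 6 (-1.74, SE 0.11, FDR = 4.39e-05). Trib3 fell from 39.1 and 41.8 CPM at day 0 to 9.12 and 11.2 CPM at day 6 (-1.99, SE 0.13, FDR = 5.43e-05). The heat shock genes Hspa1a (-2.06, SE 0.15, FDR = 8.21e-05) and Hspa1b (-2.27, SE 0.16, FDR = 7.06e-05) fell, and 60.9% and 62.4% of their exon sequence was shared with other genes. Chac1 also fell (-1.12, SE 0.29, FDR = 0.0152), but not without either day 0 library or without day 6 replicate 2 (-0.72). Of 8 fibroblast genes, which would mark feeder or stromal cells, 4 were tested and 3 rose. No gene of this list exceeded 20.0 CPM, and Pdgfrb, a receptor of mesenchymal cells, rose from 5.18 and 4.35 CPM at day 0 to 15.0 and 20.0 CPM at day 6 (1.87, SE 0.19, FDR = 3.12e-04).

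Genes named for the size of their change include Aplnr, Lhx1, Fgf5, Frzb and T, given above, and several others. Hoxb1, the hindbrain and streak Hox gene, had no count at day 0 and was at 6.32 and 21.2 CPM at day 6, which is at least 319-fold higher (against 3 counts per library). On the same basis Klhl6, at 4.79 and 27 CPM, was at least 368-fold higher, and Sprr2a2, at 3.05 and 17.1 CPM, at least 233-fold higher, though 97.1% of the exon sequence of Sprr2a2 is shared with its relatives. Pcdh7, a protocadherin gene, rose from 0.0271 and 0.0611 CPM at day 0 to 43.5 and 104 CPM at day 6 (10.67, SE 0.71, FDR = 5.79e-05). Lzts1 had 2 counts at day 0 and was at 22.4 and 26.9 CPM at day 6, a ratio of 1714 (95% counting interval 474 to 14158). Of 39 Hox genes, 30 were tested, with 10 up (33.3%) and 5 down (16.7%, near the 14.7% of all genes tested), and Hoxb1 alone reached 10 CPM. Those that fell were under 7 CPM at day 0, and Hoxc13 fell from 5.02 and 6.74 CPM at day 0 to 0.998 and 0.936 CPM at day 6 (-2.60, SE 0.24, FDR = 2.12e-04). With day 0 replicate 3 left out, Hoxb1 (FDR = 0.0505), Klhl6 and Sprr2a2 were not called, and 2 Hox genes were called up and 3 down. The Hox genes called up were 3 without day 0 replicate 2. The fold without day 6 replicate 3 was at least 146 for Hoxb1, 111 for Klhl6 and 70.5 for Sprr2a2, and without day 6 replicate 2 at least 491, 625 and 395. The log2 fold change of Pcdh7 was 9.92 without day 6 replicate 3, and without day 0 replicate 3 it had 2 counts at day 0 and a ratio of 2707 (749 to 22355). The ratio of Lzts1 was 806 (223 to 6661) without day 0 replicate 2, and without day 0 replicate 3 it was at least 605-fold higher.

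Among the falls, Nkx6-3 was at 18.5 and 21.5 CPM at day 0 and had 1 count at day 6, a ratio of 2630 (95% counting interval 472 to 103931). Zscan4c and Zscan4f, genes of the rare 2-cell-like state of mESC cultures, were at 21.1 and 10.9 and at 22.2 and 11.4 CPM at day 0 and had 3 counts each at day 6. Their ratios were 720 (246 to 3493) and 754 (258 to 3660), and 78.7% and 93.9% of their exon sequence is shared with other genes of the family, so the counts belong to the family rather than to 1 gene. All 4 tested genes of the 2-cell-like list fell. Emp1, a membrane protein gene, fell from 93 and 115 CPM at day 0 to 0.287 and 0.347 CPM at day 6 (log2 fold change -8.35, SE 0.19, FDR = 2.42e-06). Laptm5, a lysosomal protein gene, fell from 114 and 132 CPM at day 0 to 0.484 and 0.468 CPM at day 6 (-8.01, SE 0.14, FDR = 1.43e-06). H2-M5, a gene of the MHC region, fell from 63.4 and 59.6 CPM at day 0 to 0.590 and 0.514 CPM at day 6 (-6.80, SE 0.13, FDR = 1.74e-06). Myo1f (-8.48, SE 0.34, FDR = 1.13e-05), Accsl (-7.16, SE 0.20, FDR = 3.81e-06) and Mapt, which encodes the tau protein, (-6.98, SE 0.24, FDR = 7.19e-06) were the others. Myo1f without day 6 replicate 2 had 3 counts at day 6, a ratio of 602 (206 to 2922), and Nkx6-3, Zscan4c and Zscan4f had none and were at least 441-fold, 353-fold and 370.3-fold lower. The ratios of Nkx6-3, Zscan4c and Zscan4f without day 6 replicate 3 were 1315 (236 to 51942), 360 (123 to 1746) and 377 (129 to 1829).

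The day 6 libraries differed from each other in the same direction over several lists, and this was described after the values had been seen. Replicate 3 was at least 2-fold higher than replicate 2 (on CPM + 0.5) in 176 of the 18287 genes tested (0.962%) and in 139 of the 3030 upregulated genes (4.59%), while replicate 2 was higher in 38 and 7. Among streak genes 5 of 18 were at least 2-fold higher in replicate 3, among mesoderm genes 6 of 14, among definitive endoderm genes 3 of 9 and among Notch genes 5 of 15. The median log2 ratio of replicate 3 over replicate 2 was 0.61 for streak genes and 0.70 for definitive endoderm genes, against -0.46 for core pluripotency, -0.30 for naive and -0.43 for neural genes. At day 0 the same medians were 0.06 for streak, 0.18 for definitive endoderm, 0.09 for core pluripotency, 0.00 for naive and 0.04 for neural genes. Fgf5, T, Fgf8, Eomes and Foxa2, which are streak, epiblast and endoderm genes too, differed little between the day 6 libraries, and no gene of the glycolysis, hypoxia and cholesterol lists was 2-fold apart. What set the libraries apart was not tested.

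**Figure D5:**
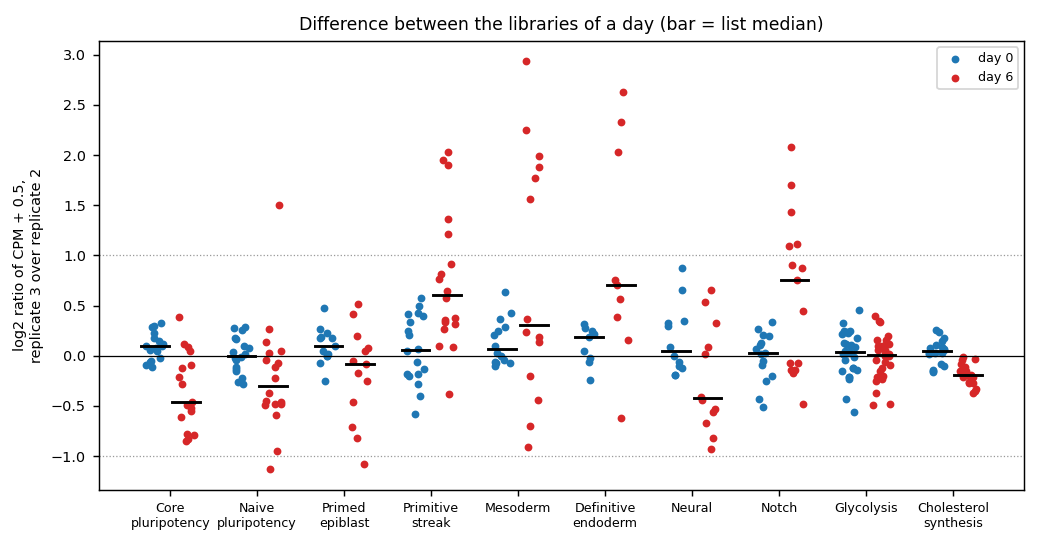
Difference between the libraries of a day: each point is the log2 ratio of CPM + 0.5 in replicate 3 over replicate 2 for 1 tested gene, blue at day 0 and red at day 6, with black bars for list medians and dotted lines at 2-fold. The day 6 points of the streak, mesoderm, endoderm and Notch lists spread far above 0, those of core and naive pluripotency and neural genes lie mostly below it, and the day 0 points stay within 1 of it.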

How the data were processed

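RNA-seq counts of 4 libraries were analysed, 2 of EB day 0 and 2 of EB day 6, grouped by their labels. The deposited table holds raw counts per gene that the authors made with HTSeq, after base calling with CASAVA 1.8.2 and alignment to mm9 with TopHat2 2.0.10 and Bowtie2 2.1.0. RNA was prepared with RNeasy Plus and TruSeq kits, and the strand setting of the counting is not given in the sources used here, so reads of overlapping and antisense genes cannot be told apart. Other deposited columns hold the authors' own log2 fold changes, p-values and FDR values, and were not used. The ChIP-seq files and the knockdown libraries were not analysed here.

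Genes were kept by filterByExpr (minimum count 10, total 15), scaled by TMM and tested with edgeR 4.0.16 (R 4.3.3) by the quasi-likelihood test, with the 4 libraries in 1 model and p-values adjusted by Benjamini-Hochberg over all genes tested. A gene was called at a 2-fold change and an FDR of 0.05. SE is the standard error of the log2 fold change. DESeq2 1.42.0, other scalings, thresholds and filters, the replicate number as a block and the omission of each library were tried. In simulated data 200 genes were given a known change, fewer than were called here, and 17913 genes were tested. The test found 45.8% of 2-fold, 82% of 4-fold, 96% of 8-fold and 100% of 16-fold changes, with 9 false calls among 170.

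The named genes were first the markers of each step. Next came up to 4 genes per list and role with the largest fold change in either direction, among those called at 10 CPM or more in the higher group. Genes called against the direction of most of their list and role were added. The last were the 10 largest rises and falls at this level, without genes known only by a model or clone number. Some genes that this rule names are not reported here. The members and lists were chosen with earlier results of these data known. For a gene with no count in a group the fold is a bound against 3 counts per library. For 1 to 3 counts in a group it is a ratio with an exact 95% interval, which covers counting error only. Shared exon sequence was measured by 50-base stretches taken every 5 bases of the mm9 exons and searched in the exons of all other genes.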

Additional observations from a re-analysis of the deposited data

How the results depend on the processing

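No gene called in the comparison changed sign under any alternative tried. Counts of genes called higher and lower were 3087 and 2739 with no filter, 3019 and 2736 with DESeq2 size factors, 2807 and 2940 with library size alone, 2825 and 2480 with DESeq2, and 2587 and 2168 at an FDR of 0.01. Fewer passed when the 2-fold limit was part of the test (glmTreat, 2073 and 1764) and at a log2 fold change of 2 (1611 and 1507), by the construction of these limits. When 1 library was left out at a time, counts lay between 2041 and 2946 higher and between 1669 and 3027 lower. Of 231 named genes called, 55 lost the call without day 0 replicate 3, 18 without day 0 replicate 2, 4 without day 6 replicate 2 and 9 without day 6 replicate 3. Without a day 0 library the remaining one is assumed to vary like the day 6 pair. The replicate numbers are shared by both days, but no label says what they pair, and with the replicate block 2975 genes were higher and 2656 lower. The deviations of same-numbered libraries correlated at 0.12 over 14392 genes. Of the simulated 2-fold changes 45.8% were found. A change of exactly 2-fold is often estimated under the 2-fold limit, however many libraries there are. This share therefore does not measure what 2 libraries a day miss.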

Other observations

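Some of the most abundant transcripts of EB day 0 that fell were gene models known only by number, and their values are given as counted. Gm17517, annotated as a lincRNA on chromosome 8 (60650232 to 60777663, mm9), was at 7653 and 4733 CPM at day 0 and at 329 and 205 CPM at day 6 (log2 fold change -4.53, SE 0.33, FDR = 7.68e-05). Gm17646, on chromosome 7 (120567105 to 120574544), was at 7453 and 4605 CPM at day 0 and at 304 and 190.0 CPM at day 6 (-4.61, SE 0.33, FDR = 7.35e-05), and Gm17492, on chromosome 4 (9848137 to 9854979), at 6144 and 3801 CPM and at 256 and 163 CPM (-4.57, SE 0.32, FDR = 7.08e-05). In the exons of Gm17517, 92.2% of the sequence was found in 70 other genes, for Gm17646 82.6% in 69 and for Gm17492 78.1% in 64. These counts therefore cannot be assigned to single loci with certainty. Day 0 replicate 2 was above replicate 3 for each of the 3, and day 6 replicate 2 was above replicate 3 as well. These genes were chosen after their values were seen.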
